A study of Mus musculus with 9 samples.

Results

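Both CD47 KO clones of the mouse Lewis lung carcinoma line LLC were pooled into 1 group and compared with WT LLC cells, to find the genes whose expression set the KO state apart whichever clone was sequenced. The members were chosen by genotype alone: 6 KO libraries (3 of clone E3 and 3 of clone E5) and 3 WT libraries, which are all 9 libraries of the series. All cells were grown in vitro and, per the methods, were LLC cells that stably express luciferase, kept in DMEM with serum. The KO cells had received Cas9 ribonucleoprotein with a guide against Cd47 and were then expanded from single cells, so each KO is 1 clone, and the series' design text calls the WT cells clonal as well. The genotype therefore rests on 1 WT line and 2 clones, the replicates are libraries of a line, and p-values measure the spread between these libraries only. Genotype and clonal origin cannot be told apart with so few lines.

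CD47 is a cell surface glycoprotein with an immunoglobulin-like outer domain and several membrane-spanning segments. It binds SIRPα on macrophages, which restrains phagocytosis, and it binds the matrix protein thrombospondin-1 and several integrins. Tumour cells commonly carry much of it, and the study asked what it does inside lung cancer cells.

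The guide and its site are shown because they define the KO group. The guide had 1 perfect match in GRCm39, at chr16:49688453-49688472 on the plus strand, inside coding sequence of exon 2 (of 11) of the canonical Cd47 transcript, which runs from 49688128 to 49688475. Its PAM ends at the last base of that exon, and the expected break lies after base 49688469, in codon 130 of 321. The 20 bases on either side are given in lower case, and the guide match with its PAM in capitals.
Cd47 site: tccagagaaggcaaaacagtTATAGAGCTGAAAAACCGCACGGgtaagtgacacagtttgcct

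The edited gene itself stood at 187, 179 and 182 CPM (counts scaled to library size by the TMM method) in WT libraries, at 47.4, 36.7 and 49.6 in E3 and at 15.5, 18.6 and 18.1 in E5. Every KO library was thus far below WT, E5 more so than E3 (log2 fold change -2.56, standard error 0.37, adjusted p = 0.00407). This and all adjusted p-values of KO against WT come from edgeR and are adjusted over all genes tested. Reads counted on Cd47 remained in every KO library, from 719 to 2371 of them.

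Library totals ran from 44257404 to 55095219 counts. Pairs of replicates were never within sampling noise (chi-square over its degrees of freedom 4.676 to 222.1), and both pairs with replicate 3 of clone E3 were farthest apart. Markers of leukocytes, endothelium and lung epithelium were near 0, apart from Cd68. Ptprc, Cd3e, Adgre1 and Csf1r of leukocytes had at most 2 counts in any library. Pecam1, Cdh5 and Kdr of endothelium had at most 5, and Sftpc, Sftpb, Nkx2-1 and Scgb1a1 of lung epithelium 0 throughout. Cd68, which carcinoma cells can also express, had 109 to 159. Markers of fibroblasts were not near 0: Pdgfra had 750 to 3335 counts, Pdgfrb 11 to 306, Col1a1 17 to 201 and Dcn 10 to 1503. Pdgfra, Pdgfrb and Col1a1 were highest in E3 libraries and lowest in E5 libraries. Whether LLC cells or other cells made these transcripts was not tested. The cells carried the mesenchymal marker Vim at 196385 to 369526 counts and the keratins Krt8 and Krt18 at 1527 to 18904 and 4498 to 31515, while Epcam had 0 and Cdh1 at most 6. Both keratins differed by clone, with E3 libraries lowest and E5 libraries highest.

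Of 14593 genes tested, 219 (1.5% of those tested) were lower and 192 (1.32%) were higher in the KO group when called as differentially expressed genes (DEGs), which takes an FDR under 0.05 together with a log2 fold change beyond 1 in size. At the FDR alone, 546 (3.74%) were lower and 467 (3.20%) were higher. The DEG count leaned on the number of WT libraries: it was 106 lower and 55 higher without WT replicate 1, 101 and 45 without replicate 2, and 116 and 64 without replicate 3. It also depended on 1 KO library. Without replicate 3 of clone E3 it was 267 lower and 249 higher, and genes past the FDR alone rose from 1013 to 2278. Leaving out any other KO library gave 173 to 254 lower and 131 to 199 higher. Of the 411 DEGs, 365 were protein-coding genes and 39 were long non-coding RNAs.

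A gene is called separated here when every KO library lay on one side of every WT library, measured as log2 CPM. This held on the lower side for 1697 genes (11.6%) and on the higher side for 1394 (9.55%). Nearly every DEG was separated, 408 of 411. The calls and the separation rest on the same libraries and groups, so this count describes the DEGs and tests nothing. The group cut through a continuous range. Hspa1b, a heat shock chaperone, was the DEG with the narrowest separation, 0.03 on the log2 CPM scale, with 1.70, 1.30 and 1.33 CPM in WT libraries against a lowest KO value of 1.74. Slc30a1, a zinc exporter, was the DEG with the smallest overlap: its WT libraries had 3.35, 5.93 and 6.23 CPM and the highest KO library 3.57. Both calls were lost in 7 of the 9 fits that left out 1 library, at adjusted p of up to 0.208 for Hspa1b and 0.194 for Slc30a1. A gap wider than 1 log2 unit was seen for 130 genes below and 41 above.

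Separation was not a property of the KO state alone. WT libraries stood apart from both clones, on either side, at 3091 genes (21.2%), E3 libraries apart from WT and E5 at 3784 (25.9%), and E5 libraries apart from WT and E3 at 3404 (23.3%). With a gap wider than 1 log2 unit the numbers were 171 for WT, 277 for E3 and 434 for E5. So each line had genes of its own, and the genes at which WT differed from both KO clones were the fewest of the 3 counts.

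The 12 DEGs with the widest separation below WT are taken first. Ly9, a receptor of the SLAM family best known from lymphocytes, had 543, 564 and 603 counts in WT libraries against 2, 3 and 2 in E3 and 1, 0 and 0 in E5. It was thus near absent from every KO library (adjusted p = 4.05e-05, edgeR), and no fold is given because its KO counts are at the detection floor of 3. Adm2, a peptide hormone of the calcitonin family, fell from 10.1, 10.5 and 10.4 CPM to between 0.0634 and 0.24 (log2 fold change -6.25, adjusted p = 4.05e-05). Its KO libraries had 7, 3 and 5 counts in E3 and 3, 8 and 13 in E5, the lowest of them at that floor. Slc7a3, a carrier of cationic amino acids, stood at 47.7, 47.3 and 45.6 CPM in WT libraries. In the KO group it was 0.98, 0.909 and 0.814 CPM in E3 and 1.25, 1.08 and 1.42 in E5, a fall of 5.44 on the log2 scale (standard error 0.17, adjusted p = 2.87e-07). E5 was slightly above E3 at Slc7a3, and both were far below WT.

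Further genes of that kind included Egr1, an immediate early transcription factor induced by ERK signalling. Its WT libraries had 24.4, 23.2 and 26.2 CPM, and the KO libraries ranged from 0.465 to 1.70 (log2 fold change -4.38, standard error 0.34, adjusted p = 0.000196). Rbp4, the plasma carrier of retinol, stood at 72.1, 61.9 and 55.1 CPM against 7.96, 7.25 and 11.6 in E3 and 6.03, 7.42 and 9.67 in E5 (log2 fold change -2.92, adjusted p = 6.01e-05). The clones overlapped each other at Egr1 and Rbp4 and stayed well below WT. Car6, a secreted carbonic anhydrase, varied in WT libraries from 3.57 to 9.35 CPM and was at most 0.388 in KO libraries. Socs2, a feedback inhibitor of cytokine receptors, fell from 13.7, 14.7 and 14.4 CPM to between 0.819 and 3.49 (log2 fold change -3.14, adjusted p = 0.00297). Lratd2, a gene of little-known function, had 6.01 to 6.97 CPM in WT libraries and 0.455 to 1.24 in KO libraries.

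A few of these genes were lower in both clones to unequal degree. Inpp5d, which encodes the phosphoinositide phosphatase SHIP1, stood at 22.2, 22.1 and 23.8 CPM in WT libraries, 0.74, 0.782 and 0.594 in E3 and 3.71, 3.54 and 2.79 in E5. E5 exceeded E3 by 2.24 on the log2 scale (adjusted p = 5.1e-06). Arhgdib went the other way, with 5.23 to 5.70 CPM in WT libraries, 0.592 to 0.901 in E3 and 0.0868 to 0.24 in E5. The proteoglycan gene Dcn likewise had its lowest values in E5, 0.215 to 0.455 CPM, against 1.46 to 3.78 in E3 and 21.6 to 30.1 in WT. Its call as a DEG was lost without any 1 of the WT libraries (adjusted p up to 0.0716).

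Among the 411 DEGs, 72 also differed between the clones by the thresholds for a DEG, 50 of the lower and 22 of the higher ones, where 11% of all genes tested differed between E5 and E3. At the FDR alone 156 differed. Both clones moved in the same direction at all 411, and 327 were DEGs in each clone's own contrast with WT. Those contrasts share the WT libraries and are also the data on which the DEGs were called, so these 2 counts describe the DEGs and test nothing.

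**Figure D1:**
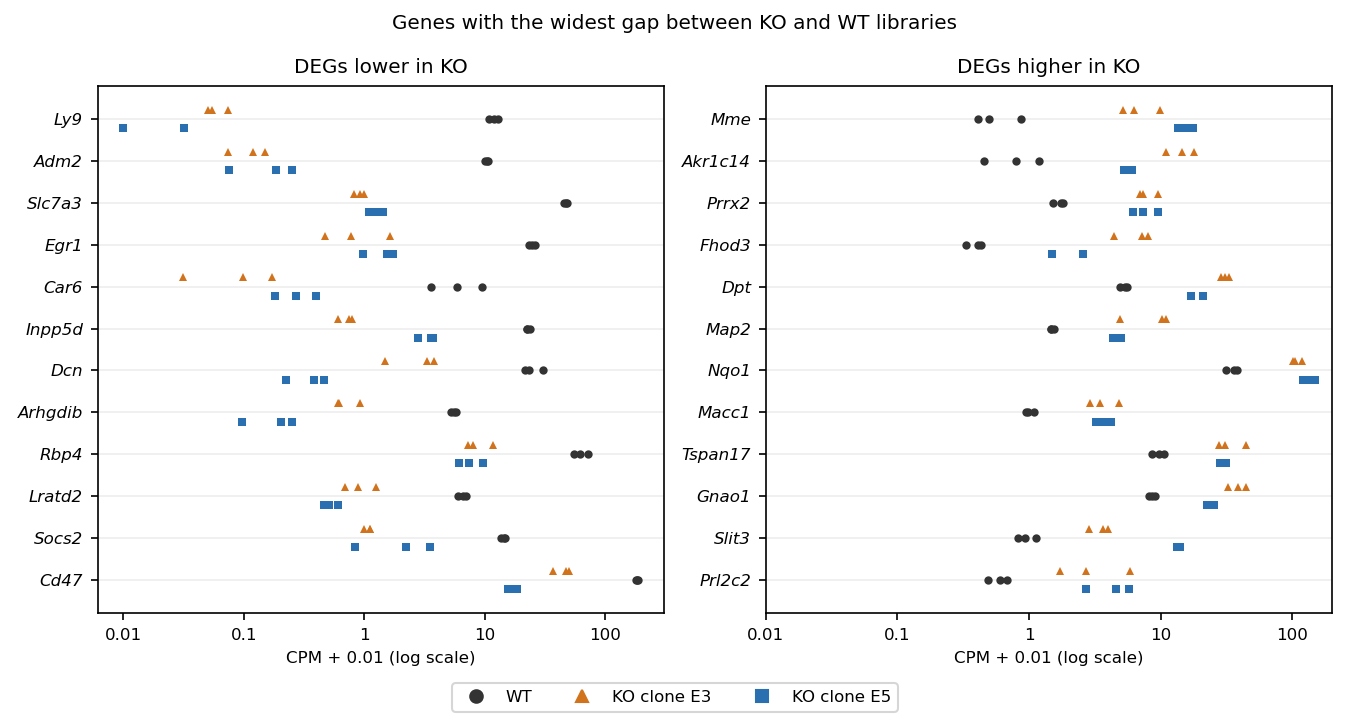
CPM (log scale, 0.01 added) in each of the 9 libraries for the 12 lower and 12 higher DEGs with the widest gap between KO and WT (average log2 CPM over 1), where circles are WT, triangles clone E3 and squares clone E5. All 6 KO points of each gene lie on one side of the 3 WT points, and for Inpp5d, Dcn and Slit3, among others, the clones do not overlap.

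On the higher side, the widest gap belonged to Mme, which encodes the cell surface peptidase neprilysin. Its WT libraries had 0.861, 0.484 and 0.401 CPM, E3 libraries 9.94, 6.30 and 5.15, and E5 libraries 13.5, 15.7 and 17.5. The KO libraries were thus far above WT, E5 more so than E3 (KO against WT log2 fold change 4.28, standard error 0.52, adjusted p = 0.00193). Akr1c14, an aldo-keto reductase that acts on steroids, rose from 0.781, 1.18 and 0.443 CPM to 18, 11 and 14.6 in E3 and 6.10, 5.23 and 5.75 in E5 (log2 fold change 3.66, adjusted p = 0.00533). Prrx2, a homeobox factor of mesenchymal cells, had 1.5, 1.75 and 1.82 CPM in WT libraries, 7, 7.29 and 9.50 in E3 and 9.57, 7.40 and 6.19 in E5. The clones overlapped at Prrx2 and both stood above WT (log2 fold change 2.21, standard error 0.20, adjusted p = 0.000387).

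Nqo1, the quinone reductase NQO1, rose from 31.4, 37.8 and 36.0 CPM to 105, 100 and 119 in E3 and 148, 134 and 121 in E5 (log2 fold change 1.79, standard error 0.14, adjusted p = 0.000237). Dpt, the matrix protein dermatopontin, stood at 5.55, 4.88 and 5.36 CPM in WT libraries and at 16.8 to 32.9 in KO libraries (log2 fold change 2.26, adjusted p = 0.00102). Macc1, a gene named for its link to metastatic colon cancer, had 0.941 to 1.07 CPM in WT libraries and 2.90 to 4.8 in KO libraries, without overlap between WT and either clone. Gnao1, a G protein alpha subunit, and Tspan17, a tetraspanin, rose by 1.86 and 1.73 on the log2 scale (adjusted p = 0.00297 and 0.000794). The formin Fhod3, the microtubule-associated protein gene Map2 and the prolactin family member Prl2c2 were also among the 12 widest, at log2 fold changes of 3.52, 2.16 and 2.73. The calls of Fhod3 and Map2 were lost without any 1 WT library (adjusted p up to 0.0655 and 0.0699), and that of Prl2c2 without WT replicate 1 or 2 (up to 0.0584).

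The results by function follow, with lists drawn from general knowledge. Counts of a list's tested genes that were separated below and above WT are read against 11.6% and 9.55% over all genes tested.

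**Figure D2:**
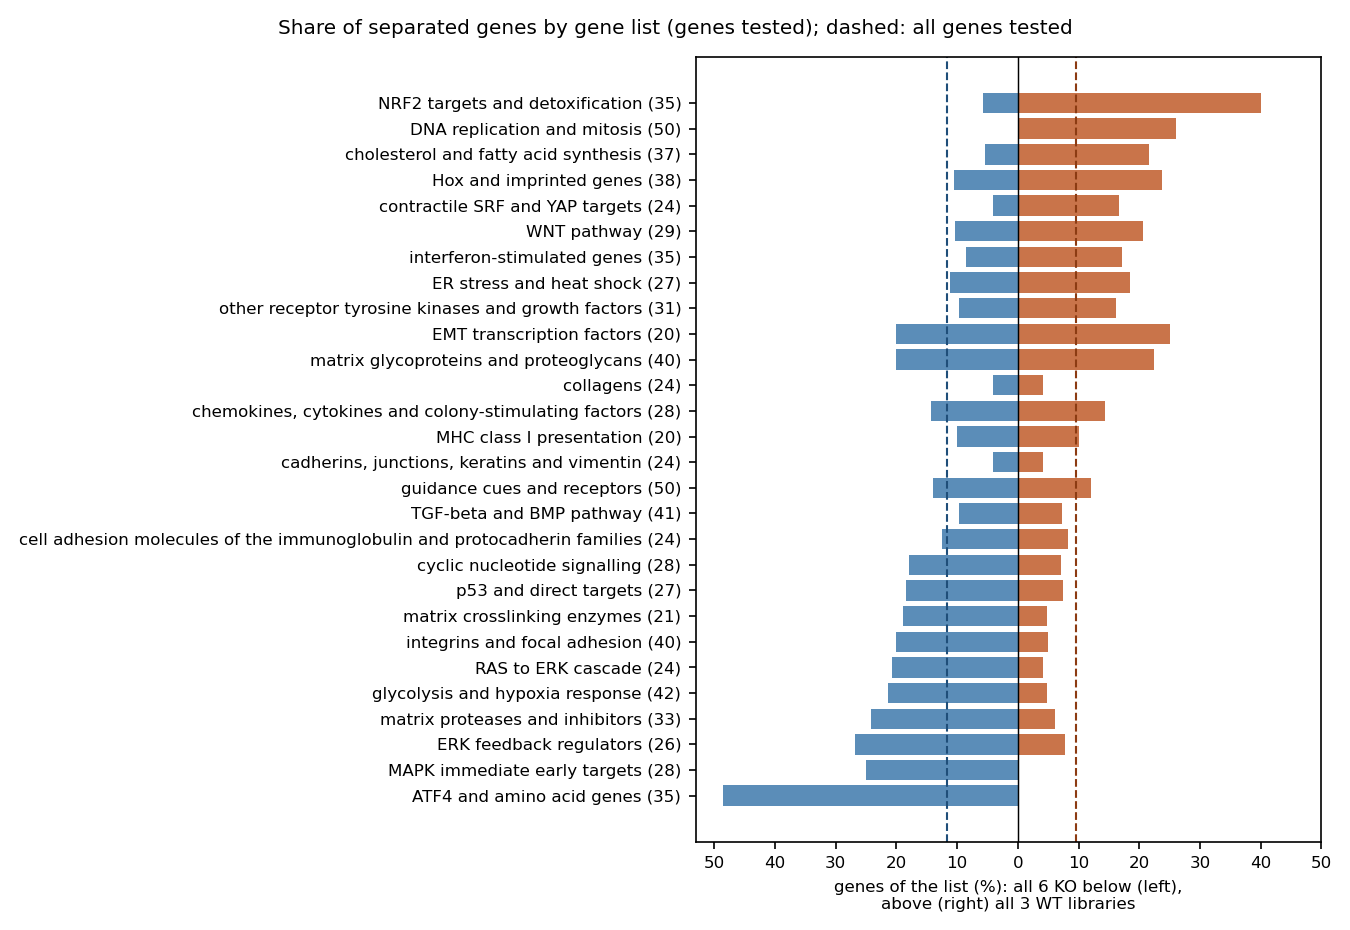
Percent of the tested genes of each list (number in parentheses, lists of 20 or more) with all 6 KO libraries below (left, blue) or above (right, orange) all 3 WT libraries, with dashed lines at the values over all genes tested. The ATF4 list reaches 48.6% below and 0% above, and the list of NRF2 targets and other detoxification genes 40.0% above and 5.71% below.

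Genes of the ATF4 response held the largest share of separated genes among the lists with 20 or more tested genes. ATF4 is the transcription factor of the integrated stress response, translated when amino acids run short or the endoplasmic reticulum is stressed, and it drives amino acid transporters, biosynthetic enzymes, tRNA synthetases and feedback regulators. Of 35 genes, all tested, 17 (48.6%) had every KO library below every WT library and 0 had every KO library above. The list's median log2 fold change was -0.73, against 0.02 over all genes tested, with 31 of 35 genes below 0. The median was -1.24 in clone E3 and -0.33 in clone E5, which share the WT libraries. As DEGs, 5 were lower (Slc7a3, Ppp1r15a, Nupr1, Wars1 and Sesn2) and 0 were higher, and at the FDR alone 6 were lower.

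By role, the regulators of the response moved as follows. Ppp1r15a encodes GADD34, the phosphatase subunit that ends the translational block. It had 171, 186 and 179 CPM in WT libraries, 20.8, 14.5 and 19.5 in E3 and 27.9, 39.4 and 53.2 in E5, a fall of 2.61 on the log2 scale (standard error 0.34, adjusted p = 0.00294). Nupr1, a small stress-induced chromatin protein, fell from 37.8, 42.9 and 41.4 CPM to between 7.76 and 17.4 (log2 fold change -1.67, adjusted p = 0.00337). Sesn2, a leucine-sensing inhibitor of mTORC1, had 176 to 207 CPM in WT libraries, 62.9 to 87.9 in E3 and 115 to 130 in E5. All KO libraries were below WT at these 3 genes. The Sesn2 call, at adjusted p = 0.0296, was lost without any 1 of the WT or E3 libraries.

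Ddit3 and Trib3, which encode the pro-apoptotic factor CHOP and a pseudokinase that restrains ATF4, did not pass the test although both were separated. Ddit3 had 87.5, 98.8 and 99.7 CPM in WT libraries, 20.2, 8.20 and 21.3 in E3 and 26.7, 44.1 and 57.2 in E5 (log2 fold change -1.69, standard error 0.45, adjusted p = 0.0537). Trib3 had 304 to 330 CPM in WT libraries, 26.8 to 63.9 in E3 and 129 to 202 in E5 (log2 fold change -1.53, standard error 0.51, adjusted p = 0.103). The pattern at both was a fall larger in E3 than in E5, which the pooled test counts as spread. Atf4 itself had 685, 739 and 735 CPM in WT libraries and 310 to 670 in KO libraries (log2 fold change -0.45, adjusted p = 0.267).

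Among transporters, Slc7a3 was followed by Slc38a1, a glutamine carrier, with a log2 fold change of -0.74 and an adjusted p of 0.0404. The heterodimer partners Slc7a5 and Slc3a2, which import leucine, were separated by only 0.02 log2 units each (adjusted p = 0.123 and 0.138). Slc7a11, the cystine importer, overlapped WT: it had 85.3 to 93.9 CPM in WT libraries, 13.3 to 29.6 in E3 and 86.1 to 103 in E5. Among enzymes and synthetases, Wars1, the tryptophanyl-tRNA synthetase, fell from 340, 336 and 312 CPM to 94.1 to 104 in E3 and 150 to 226 in E5 (log2 fold change -1.18, adjusted p = 0.0297). Asns, asparagine synthetase, was separated at 633 to 698 CPM in WT libraries against 242 to 279 in E3 and 413 to 577 in E5 (adjusted p = 0.109). Cth, the last enzyme of cysteine synthesis, overlapped WT in E5 alone, with 53.2 to 124 CPM there, 15.9 to 18.5 in E3 and 120 to 138 in WT. The genes of serine synthesis did not move alike. Phgdh and Psat1 had log2 fold changes of -0.20 and 0.09, while Psph was separated below WT.

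The promoter bases of members of this list are shown because DNA letters bound by ATF4 with its C/EBP partners are well described. RefSeq promoters (GRCm38.p6, 250 bases before to 50 after the start) matched by symbol for 10102 of 14585 symbols tested. The letters TGATGNAA, searched on both strands, were in 2.67% of those promoters. They were in 9 of the 26 promoters matched for the ATF4 list (34.6%), in 4 of the 12 matched for its separated genes (Asns, Fgf21, Nupr1 and Trib3), in 13 of 142 matched for lower DEGs (9.15%) and in 3 of 136 for higher DEGs (2.21%). Over all separated genes, TGATGNAA was in 3.65% of matched promoters below WT and in 1.56% above. The letters of the cAMP response element, TGACGTCA, were in 3.58% of all promoters, 3.52% for lower DEGs and 1.47% for higher DEGs. A match is a description of letters and no evidence of binding. The 250 bases upstream of 3 of these genes are printed 5′ to 3′ on the gene's own strand with matches in capitals, for Asns and Nupr1 to TGATGNAA and for Ppp1r15a to TGACGTCA. In Asns the capitals farther from the start match TGACNNNGC on the other strand, the core of another element searched below.
Asns, chr6:7693210-7693459, minus strand: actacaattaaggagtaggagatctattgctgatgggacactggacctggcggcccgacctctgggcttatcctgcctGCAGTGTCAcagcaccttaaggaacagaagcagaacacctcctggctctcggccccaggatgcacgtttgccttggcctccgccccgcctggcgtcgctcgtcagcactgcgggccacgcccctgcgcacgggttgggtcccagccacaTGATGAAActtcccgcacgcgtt
Nupr1, chr7:126625471-126625720, minus strand: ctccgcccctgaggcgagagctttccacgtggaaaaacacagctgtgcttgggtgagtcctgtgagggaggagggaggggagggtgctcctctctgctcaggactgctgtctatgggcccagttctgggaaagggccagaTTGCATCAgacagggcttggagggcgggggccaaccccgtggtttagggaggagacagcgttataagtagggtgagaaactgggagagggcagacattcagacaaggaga
Ppp1r15a, chr7:45526269-45526518, minus strand: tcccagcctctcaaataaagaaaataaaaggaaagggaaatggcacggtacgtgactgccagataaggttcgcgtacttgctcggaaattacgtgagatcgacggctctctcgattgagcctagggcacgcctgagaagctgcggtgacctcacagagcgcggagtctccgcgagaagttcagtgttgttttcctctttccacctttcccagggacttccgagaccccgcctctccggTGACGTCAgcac

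Several detoxification genes were higher in the KO group. NRF2 is the transcription factor that responds to oxidants and electrophiles, and its targets conjugate, reduce and export reactive compounds and supply NADPH and glutathione. The list held 47 NRF2 targets and other detoxification genes, of which 35 were tested. Of those tested, 14 (40.0%) had every KO library above every WT library and 2 (5.71%) had every KO library below. The median log2 fold change was 0.39, at 0.30 in E3 and 0.37 in E5. As DEGs, 5 were higher (Akr1c14, Cyp1b1, Nqo1, Gsta4 and Ephx1) and 0 were lower, and at the FDR alone 9 were higher. Of the 35 log2 fold changes, 9 were below 0.

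Beside Nqo1 and Akr1c14, Cyp1b1, a cytochrome P450 that oxidises polycyclic hydrocarbons and oestrogens, had 10, 16 and 10 counts in WT libraries, 46 to 77 in E3 and 101 to 119 in E5 (log2 fold change 2.82, standard error 0.38, adjusted p = 0.00324). Gsta4, a glutathione transferase for lipid peroxidation products, stood at 11.6, 13.0 and 12 CPM in WT libraries and at 24 to 48.1 in KO libraries (log2 fold change 1.33, adjusted p = 0.00849). Ephx1, microsomal epoxide hydrolase, stood at 9.90, 11.6 and 12.2 CPM and at 21.8 to 31.5 in KO libraries (log2 fold change 1.19, adjusted p = 0.00351). Both clones lay above WT at each of these genes.

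Genes for glutathione and NADPH supply showed smaller differences. Gclm, the modifier subunit of the first enzyme of glutathione synthesis, was separated by 0.02 log2 units (log2 fold change 0.54, adjusted p = 0.0519), and Gclc, its catalytic partner, overlapped WT at -0.13. Gsr, glutathione reductase, and Me1, malic enzyme, passed the FDR alone at log2 fold changes of 0.46 and 0.42 (adjusted p = 0.0365 and 0.0254). Classic NRF2 targets were among those that did not separate: Hmox1, heme oxygenase, had a log2 fold change of -0.21 and Txnrd1, thioredoxin reductase, of 0.17. The NRF2 gene itself, Nfe2l2, was slightly below WT in every KO library, at 267 to 299 CPM against 333, 342 and 342 (log2 fold change -0.26, adjusted p = 0.0829).

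The core letters of the antioxidant response element, TGACNNNGC, were in 17.1% of all promoters matched. They were in 10 of 28 matched for the list (35.7%) and in 4 of 12 for its separated higher genes (Gclm, Gstm5, Me1 and Pgd). The shares were 21.3% for higher DEGs and 16.2% for lower DEGs. Over all separated genes the letters were in 16.5% of promoters above WT and 16.4% below. They were no rarer in the ATF4 list, with 8 of 26 promoters (30.8%), and 5 of 12 for its separated genes (41.7%). The upstream bases of Gclm and Gstm5 are printed with matches in capitals, as above. In Gstm5 the capitals farther from the start match TGANTCA, the AP-1 site. The letters TGANTCA were in 6.2% of all promoters, 13.4% for lower DEGs and 11.8% for higher DEGs. Over all separated genes they were in 6.75% below WT and 7.21% above.
Gclm, chr3:122245307-122245556, plus strand: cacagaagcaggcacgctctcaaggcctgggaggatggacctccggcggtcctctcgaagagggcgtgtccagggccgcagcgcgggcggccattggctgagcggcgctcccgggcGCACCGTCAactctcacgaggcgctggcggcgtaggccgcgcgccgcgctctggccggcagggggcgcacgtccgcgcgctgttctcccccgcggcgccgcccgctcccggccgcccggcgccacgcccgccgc
Gstm5, chr3:107895604-107895853, plus strand: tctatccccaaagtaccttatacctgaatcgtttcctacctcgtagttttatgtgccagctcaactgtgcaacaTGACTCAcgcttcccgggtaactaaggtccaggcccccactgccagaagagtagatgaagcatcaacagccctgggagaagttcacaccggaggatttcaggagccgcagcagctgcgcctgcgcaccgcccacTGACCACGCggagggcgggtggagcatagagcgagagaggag

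**Figure D3:**
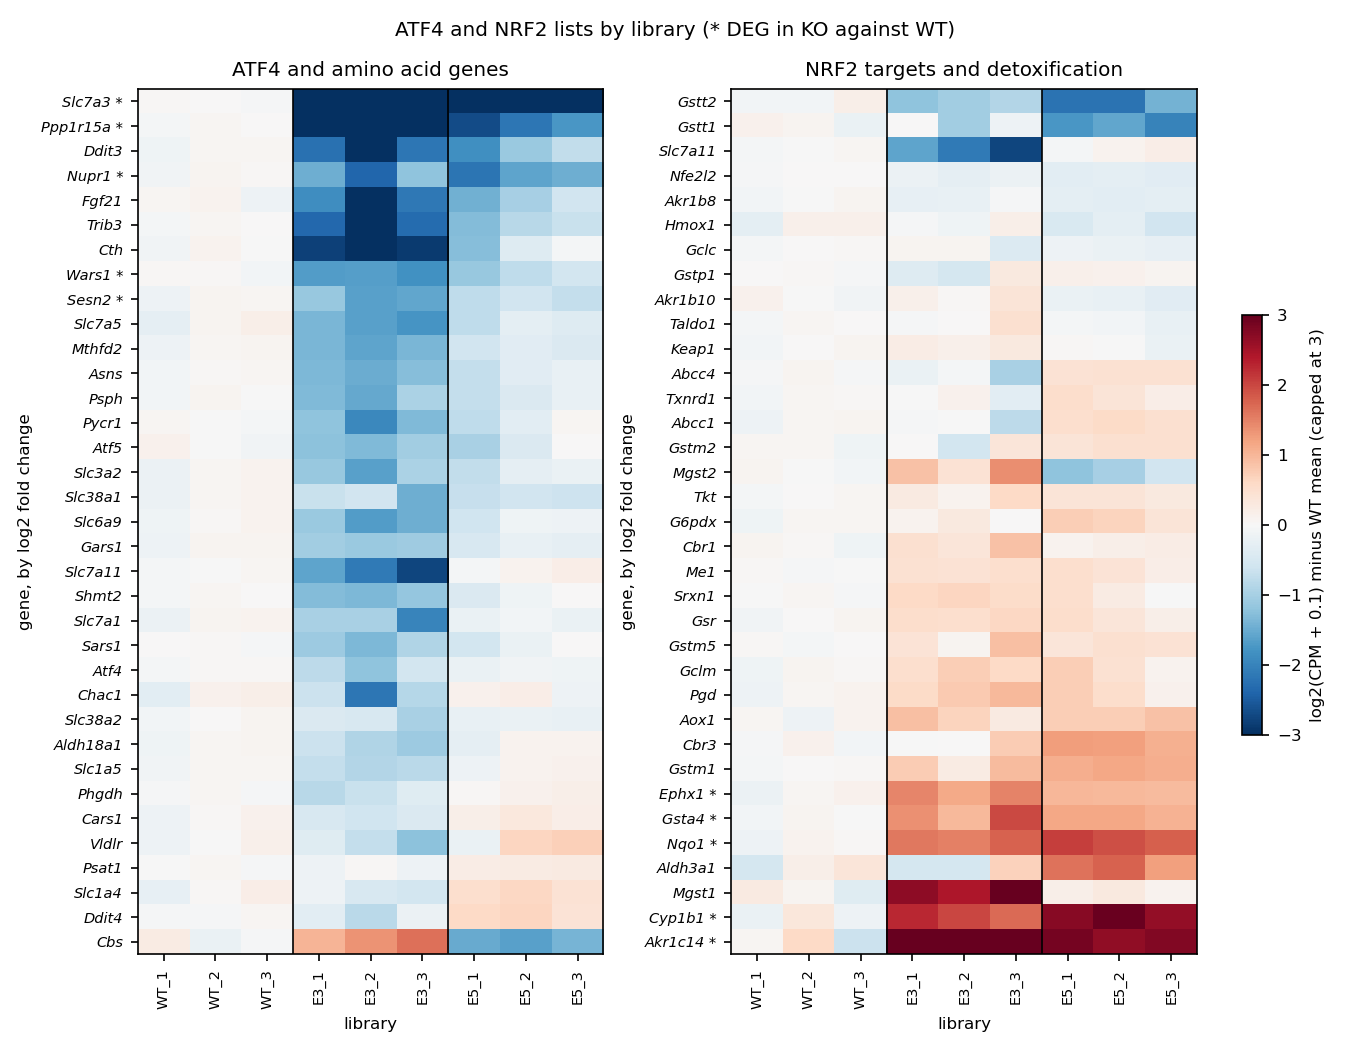
Log2(CPM + 0.1) minus the WT mean in each library (columns, 3 WT, 3 E3, 3 E5) for the tested genes of the ATF4 list (left) and the NRF2 list (right), ordered by log2 fold change, with DEGs starred and the colour scale capped at 3. Most rows of the ATF4 list are blue in E3 and paler in E5, and the starred rows of the NRF2 list are red in both clones.

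Immediate early genes, the first transcripts made when growth factors activate ERK, had 7 of 28 tested genes (25%) below WT and 0 above, with 4 DEGs lower. The number above was 1 with upper-quartile scaling or library totals, 1 without replicate 1 of clone E3, and 2 without WT replicate 1 or replicate 2 of clone E3. Over all genes tested, leaving out those 3 libraries raised the number above from 1394 to 1516, 1768 and 1538 in that order. Beside Egr1, the DEGs of this list were Atf3, a stress-induced repressor, Klf4, a zinc finger factor, and Plau, the urokinase protease. Atf3 had 38.6, 48.1 and 45.9 CPM in WT libraries, 3.64, 2.03 and 3.80 in E3 and 8.92, 9.95 and 12.9 in E5 (log2 fold change -2.68, adjusted p = 0.0111). It is also a target of ATF4. Klf4 fell from 14.7, 17 and 16.9 CPM to between 5.13 and 7.44 (log2 fold change -1.35, standard error 0.13, adjusted p = 0.000794), with the clones overlapping. The Atf3 call was lost without WT replicate 2 or 3 (adjusted p up to 0.0617). The Plau call (adjusted p = 0.0366) was lost in 7 of the 9 fits that left out 1 library, those without any WT library included (up to 0.151). The list's median log2 fold change was -0.13.

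Feedback regulators of ERK, which ERK induces and which restrain it, gave 7 of 26 genes (26.9%) below WT, 2 above. At the FDR alone 5 were lower, and none of those 5 reached the fold threshold. Errfi1, an inhibitor of EGFR, had 140, 139 and 139 CPM in WT libraries and 62.1 to 78.1 in KO libraries (log2 fold change -0.93, standard error 0.09, adjusted p = 0.00071). The ERK phosphatases Dusp2, Dusp5 and Dusp6 and the RAS pathway inhibitor Spry4 had log2 fold changes of -0.95, -0.91, -0.61 and -0.90, each with an adjusted p under the FDR threshold (0.00467, 0.0183, 0.00824 and 0.00725). In the RAS to ERK cascade, 5 of 24 genes were below WT and 1 above. The scaffold Ksr2 was its only DEG (log2 fold change -2.10, adjusted p = 0.0108), a call lost without WT replicate 2 or 3. Map2k1, which encodes the kinase MEK1, passed the FDR alone at -0.45. Of 11 genes of the EGFR family and its ligands tested, 2 were below WT and 2 above (18.2% each), with a median of 0.07. Areg, amphiregulin, was the only DEG of that list (log2 fold change -1.69, adjusted p = 0.00297). It fell from 49.7, 56.9 and 49.3 CPM to 10.8 to 14.0 in E3 and 19.6 to 20.8 in E5.

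Genes of epithelial-mesenchymal transition (EMT) were taken up next. Vim, the mesenchymal intermediate filament, stood higher in KO libraries: 4151, 4131 and 4217 CPM in WT, 5259, 4848 and 6333 in E3 and 6093, 6786 and 6833 in E5 (log2 fold change 0.53, standard error 0.12, adjusted p = 0.0299). That value was past the FDR threshold and below the fold threshold, and it was up to 0.15 when 1 library was left out. Fn1, fibronectin, was lower in every KO library, at 556 to 1578 CPM against 1762 to 2246, and did not pass (log2 fold change -0.74, adjusted p = 0.14). Cdh2, N-cadherin, overlapped: 25.4 to 28.1 CPM in WT libraries and 19.2 to 34.2 in KO libraries (log2 fold change 0.12, standard error 0.16). Cdh1 was too low to be tested. Of 20 EMT transcription factors tested, 4 (20%) were separated below WT and 5 (25%) above. Prrx2 was the only DEG among them, and it was higher. Its paralogue Prrx1 was lower at the FDR alone (log2 fold change -0.72, adjusted p = 0.0387), and Twist1 stood 0.13 above WT (adjusted p = 0.516).

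Matrix genes divided. Of 40 glycoproteins and proteoglycans tested, 8 (20%) were separated below and 9 (22.5%) above, with 3 DEGs lower and 4 higher. On the lower side, Ccn3, a matricellular protein of the CCN family, had 50.4, 46.3 and 48.1 CPM in WT libraries and 10.9 to 18.1 in KO libraries (log2 fold change -1.68, standard error 0.14, adjusted p = 0.000308). Fbln2, which encodes fibulin-2, had 17, 19 and 19 counts in WT libraries, 0 in each E3 library and 1, 1 and 5 in E5. Its call was lost without any 1 WT library (adjusted p up to 0.0757). On the higher side, the small leucine-rich proteoglycan gene Ogn (osteoglycin) rose from 7.43, 5.49 and 6.16 CPM to between 17.6 and 22.7 (log2 fold change 1.64, standard error 0.15, adjusted p = 0.000401). Omd, its neighbour in that family, rose from 14, 7 and 8 counts to between 21 and 40 (log2 fold change 1.74, adjusted p = 0.0171). So Dcn, Ogn and Omd, all small leucine-rich proteoglycans, did not share a direction, and the call of Omd was lost without WT replicate 2 or 3.

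Of 24 collagen genes tested, 1 was separated below WT and 1 above (4.17% each). The DEG was Col5a2, a chain of collagen V, with 78, 53 and 78 counts in WT libraries and 3 to 14 in KO libraries (log2 fold change -2.92, adjusted p = 0.00421). Adamts14, which trims procollagens, fell from 158, 161 and 163 CPM to between 49.2 and 80.1 (log2 fold change -1.36, adjusted p = 0.00132). The epilysin gene Mmp28 fell by 1.5 on the log2 scale (adjusted p = 0.00493). At focal adhesions, where integrins meet the cytoskeleton, 8 of 40 genes were below WT and 2 above. The kinase Fyn, of the Src family, had 131, 140 and 139 CPM in WT libraries and 33.3 to 58.2 in KO libraries (log2 fold change -1.69, standard error 0.17, adjusted p = 0.000794). The adaptors Pxn (paxillin) and Zyx (zyxin) passed the FDR alone, at log2 fold changes of -0.83 and -0.66.

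WNT signalling had 3 of 29 tested genes (10.3%) below WT and 6 (20.7%) above, with 1 DEG lower and 4 higher. The ligand Wnt7b fell from 143, 149 and 150 CPM to between 55.1 and 69.8 (log2 fold change -1.19, standard error 0.09, adjusted p = 0.000173). The ligand Wnt5a, which mostly acts without beta-catenin, rose from 1.96, 2.21 and 2.55 CPM to 16.8, 16.1 and 10.7 in E3 and 5.73, 7.03 and 7.19 in E5 (log2 fold change 2.24, adjusted p = 0.0107, a call lost without any 1 WT library, at up to 0.0753). Of the receptors, Fzd2 rose from 4.69, 4.61 and 4.62 CPM to between 10.5 and 12.6 (log2 fold change 1.34, standard error 0.12, adjusted p = 0.000308), and Fzd8 from 1.10, 1.09 and 0.865 to between 2.62 and 2.89 (log2 fold change 1.43, adjusted p = 0.00211). The clones overlapped at Fzd8, and at Fzd2 E5 was slightly above E3. Another ligand, Wnt10b, was the remaining DEG, at 1.11 (adjusted p = 0.00533).

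Among other surface and secreted proteins, the atypical cadherins Fat3 and Fat1 went opposite ways. Fat3 had 156, 166 and 137 counts in WT libraries against 0 to 11 in KO libraries (adjusted p = 0.00308). Fat1 had 26.7, 29.8 and 32.2 CPM against 35.0 to 142, and its call was lost in 6 of the 9 fits that left out 1 library. Of 50 guidance cues and receptors tested, 7 (14%) were below WT and 6 (12%) above. Sema3b and Sema3e, secreted semaphorins, were lower at log2 fold changes of -2.03 and -1.31 (adjusted p = 0.00135 and 0.00277), and Slit3, a ligand of ROBO receptors, was higher. Slit3 stood at 0.821, 0.925 and 1.12 CPM in WT libraries, 3.96, 3.63 and 2.84 in E3 and 13.3, 13.7 and 14.1 in E5 (log2 fold change 3.17, adjusted p = 0.021, a call lost without any 1 WT library, at up to 0.117).

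Of 28 chemokines and cytokines tested, 4 were below WT and 4 above (14.3% each). Cxcl16, a membrane-bound chemokine, fell from 2.20, 2.06 and 2.01 CPM to between 0.108 and 0.44 (log2 fold change -2.92, adjusted p = 0.00203). Ccl9, a macrophage-attracting chemokine, went from 2, 4 and 3 counts in WT libraries to between 20 and 33 in KO libraries (adjusted p = 0.00148). It is near the detection floor in WT, so no fold is given. Of 20 MHC class I presentation genes tested, 2 were below WT and 2 above (10% each), with a median log2 fold change of 0.09. H2-K1, a classical class I heavy chain, was the only DEG of that list (log2 fold change -2.07, adjusted p = 0.00383). It had 18.5, 15.5 and 16.0 CPM in WT libraries, 5.38, 3.25 and 6.68 in E3 and 2.56, 3.06 and 2.85 in E5. Reads of class I genes can be shared with near-identical copies, so its count is uncertain. Of 16 genes tested for other phagocytosis and checkpoint signals, 4 (25%) were below WT and 2 (12.5%) above. Their log2 fold changes were below 0 at 8 and above 0 at 8, with a median of -0.02. Pvr, the ligand of TIGIT and DNAM-1, fell by 1.08 on the log2 scale (adjusted p = 0.00217), and Cd274, which encodes PD-L1, passed the FDR alone at -0.93. Of the partners of CD47 tested, 3 of 13 were below WT, Cd47 included, and 1 above.

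**Figure D4:**
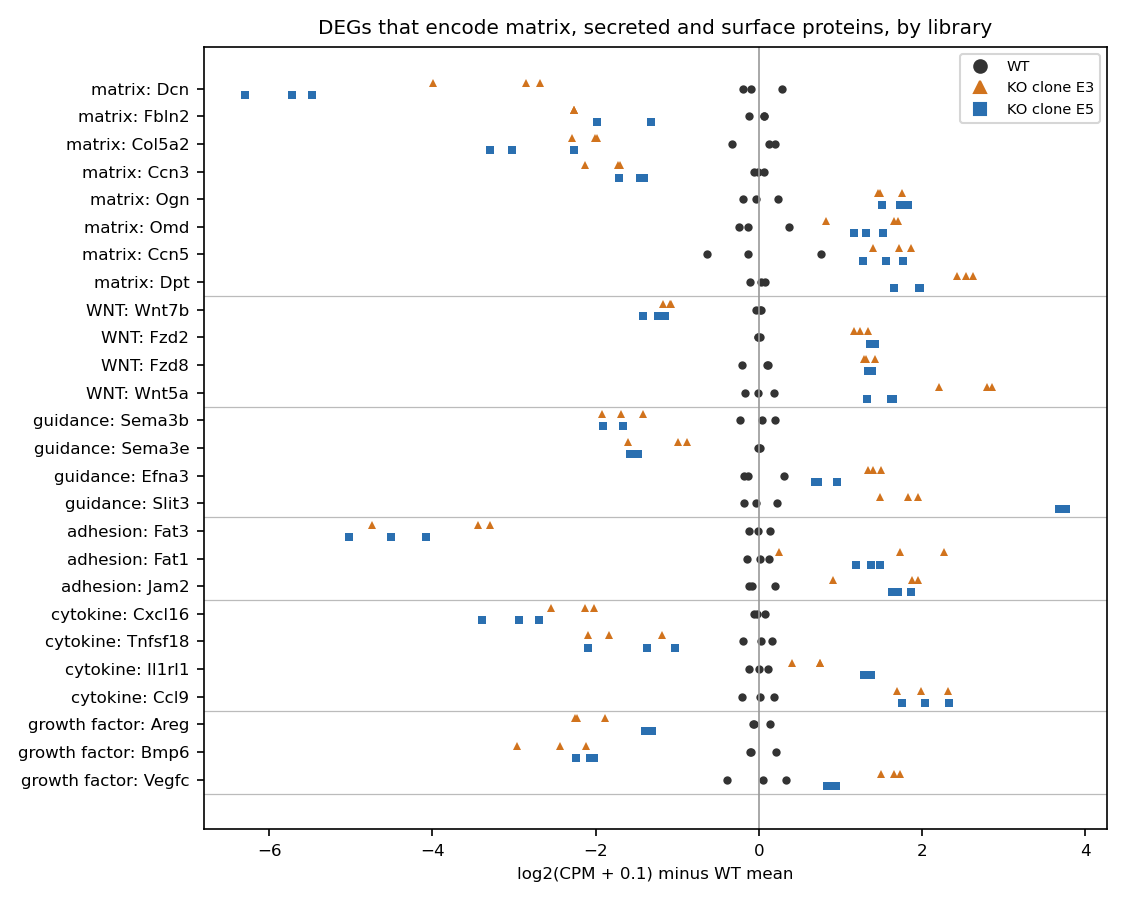
Log2(CPM + 0.1) minus the WT mean in each library for DEGs that encode matrix, WNT, guidance, adhesion, cytokine and growth factor proteins, where circles are WT, triangles clone E3 and squares clone E5. Within each class some genes lie left of WT and others right, and Fzd8 and Ccl9 show overlapping clones.

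Of 50 DNA replication and mitosis genes, all tested, 13 (26.0%) were above WT and 0 below, with 44 of 50 log2 fold changes above 0, and a median of 0.22. Kif20a, a mitotic kinesin, passed the FDR alone, at a log2 fold change of 0.64. Without replicate 3 of clone E5 the number above WT was 24. Separation is easier to meet with fewer libraries, and over all genes tested the number above rose from 1394 of 14593 to 1733 of 14891. Of 37 cholesterol and fatty acid synthesis genes tested, 8 (21.6%) were above and 2 below, with a median of 0.42. At the FDR alone 4 were higher, all short of the fold threshold. Insig1, which retains the sterol sensor in the endoplasmic reticulum, had the smallest adjusted p of them, 0.00963, at a log2 fold change of 0.67. Without replicate 3 of clone E5 the number above WT was 19, beside the same 1733 over all genes tested.

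Of the glycolysis and hypoxia genes, 9 (21.4%) of 42 tested were below WT and 2 (4.76%) above, with 3 DEGs lower (Ero1a, Aldoa and Car9, a carbonic anhydrase). The number above was 6 without WT replicate 1 and 4 without WT replicate 3 or replicate 2 of clone E3. Over all genes tested the number above rose there too, from 1394 to 1768, 1626 and 1538 in that order. Slc2a1, the glucose transporter GLUT1, had 224, 224 and 234 CPM in WT libraries, 113, 115 and 115 in E3 and 156, 164 and 154 in E5 (log2 fold change -0.74, adjusted p = 0.0164). Ero1a, an oxidase of the endoplasmic reticulum that is induced by hypoxia, fell by 1.17 on the log2 scale (adjusted p = 0.048). That call was lost in 6 of the 9 fits that left out 1 library, that of Car9 in 7, and that of Aldoa in 3, those without a WT library (adjusted p up to 0.183, 0.225 and 0.0711). The DEG with the symbol Aldoa was the lower of 2 rows of that name, at 3.23 to 3.83 CPM in WT libraries, and the row that carries nearly all aldolase A reads overlapped WT (log2 fold change -0.16, adjusted p = 0.471). The list's median was 0.01.

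Some separated genes with wide gaps were not DEGs, and the clones were far apart at the lower ones. Lgi2, a secreted leucine-rich protein, had 5217, 4163 and 3826 counts in WT libraries, 1772, 1133 and 1098 in E3 and 0 in each E5 library. Mapkapk3, a kinase activated by p38, had 266, 273 and 253 counts in WT libraries, 119, 129 and 111 in E3 and again 0 in each E5 library. Both were thus lower in E3 and undetected in E5, and the pooled test gave adjusted p of 0.309 and 0.383. Galnt3, an enzyme that starts mucin-type glycans, stood at 17.5 to 17.7 CPM in WT libraries, 0.401 to 0.64 in E3 and 3.17 to 5.46 in E5 (adjusted p = 0.054). Crabp1, which binds retinoic acid in the cytoplasm, had 5.28 to 5.95 CPM in WT, 0.296 to 0.726 in E3 and 2.07 to 2.68 in E5. On the higher side the widest such genes fell short only on the fold threshold: Arvcf, a catenin, Zdhhc2, a palmitoyl transferase, Abtb2 and Nipsnap1 had log2 fold changes of 0.94, 0.87, 0.86 and 0.91 and adjusted p of 0.00297, 0.00129, 0.00383 and 0.00414.

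The direction of the separated genes varied by chromosome. On chromosome 8, 163 of 818 tested genes (19.9%) were above WT and 43 (5.26%) below. On chromosome 17, 113 of 757 (14.9%) were above and 35 (4.62%) below. The opposite held on chromosome 9, with 28 of 802 (3.49%) above and 142 (17.7%) below, on chromosome 14, with 17 of 478 (3.56%) above and 90 (18.8%) below, and on chromosomes 4, 6 and 10, with 17.6%, 19.3% and 19.2% below. The medians over a chromosome's genes were small, between -0.10 on chromosome 9 and 0.15 on chromosome X among the autosomes and X. On chromosome 8 the median was 0.18 in E3 and 0.10 in E5, and on chromosome 9 it was -0.01 in E3 and -0.23 in E5. No test was applied to these counts.

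**Figure D5:**
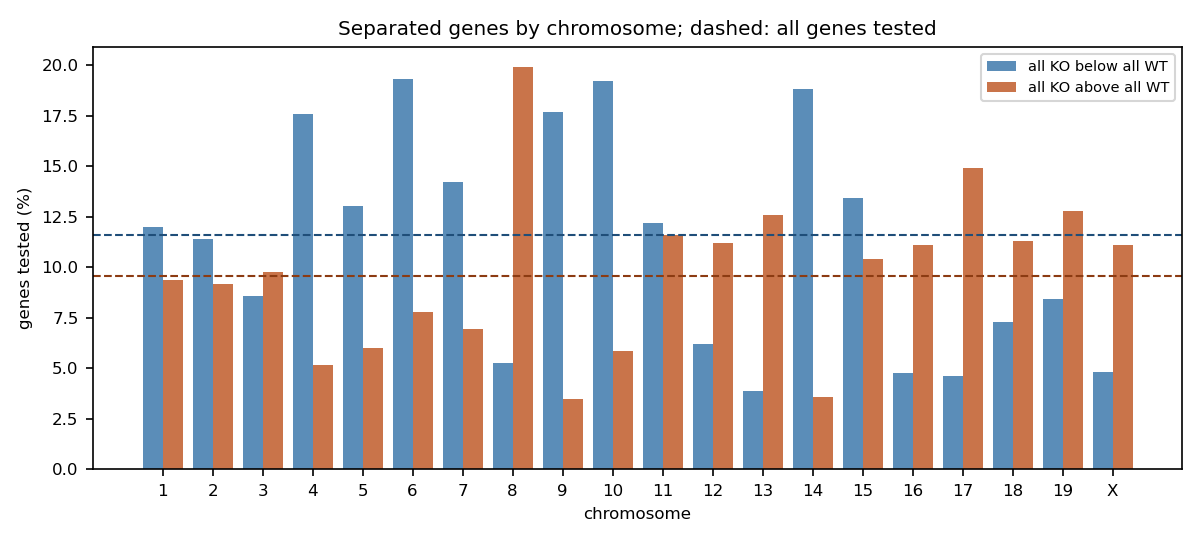
Percent of the tested genes on each chromosome with all 6 KO libraries below (blue) or above (orange) all 3 WT libraries, with dashed lines at the values over all genes tested. Chromosome 8 reaches 19.9% above and 5.26% below, and chromosome 9 shows 3.49% above and 17.7% below.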

How the data were processed

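The data were 9 RNA-seq libraries of LLC cells (3 WT, 3 of clone E3, 3 of clone E5). The deposited values are raw counts of reads per gene, with no normalization and no pooling. Per the labels, the authors made polyadenylated, directional libraries, used FastQC and Trimmomatic on the reads and STAR for alignment, with GRCm39 as the genome build. Which tool counted reads, with which strand option and annotation, is not given in the sources used here, so counts of overlapping genes and near-identical copies are uncertain. The columns were mapped to samples by name.

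Low genes were then removed (filterByExpr with a minimum count of 10 and a minimum total of 15), leaving 14593 of 50813. Counts were scaled by TMM and the 6 KO libraries compared with the 3 WT libraries by the quasi-likelihood test of edgeR (version 4.0.16) in R 4.3.3, so that differences between clones count as spread (coefficient of variation 28.5%, against 14.8% in the fit of the 3 lines). The DEG thresholds were 0.05 for the Benjamini-Hochberg FDR over all genes tested and 1 for the size of the log2 fold change. E5 and E3 were compared in a fit of the 3 lines. Separation used log2 CPM with a prior count of 2. The detection floor was set at 3 counts per library, which covers counting error only. On counts simulated for 14593 genes with 200 changed by 2 log2 units, 190 were recovered with 1 false call. Those counts were drawn with the spread of the fit of 3 lines and the same mean in both clones. The rates therefore do not carry over to the pooled test of these data, where the clones differ.

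Named genes are Cd47, Vim, Cdh1, Cdh2 and Fn1, the 12 lower and 12 higher DEGs with the widest gap and an average log2 CPM above 1, up to 3 DEGs in each direction per list, the 4 widest separated genes in each direction that were not DEGs, and the DEGs nearest to the edge of separation. Other genes of the lists were chosen after their values were seen, and so were the motifs TGATGNAA and TGACNNNGC. The comparison and the gene lists were chosen with earlier results of these data known. The alternatives were DESeq2 (version 1.42.0), other scalings, filters, designs (limma version 3.58.1 among them) and thresholds, and each library left out in turn.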

Additional observations from a re-analysis of the deposited data

Results flagged for a closer look

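Of the 85 genes named by rule, 19 stand out because E5 and E3 differed from each other by the thresholds for a DEG (E5 minus E3, log2, edgeR's quasi-likelihood test). E5 was lower than E3 at Dcn (-3.03), Arhgdib (-1.96), Fhod3 (-1.57), Akr1c14 (-1.36), Cd47 (-1.36), Wnt5a (-1.13) and Cxcl16 (-1.06). The fitted values of Lgi2 (-13.39) and Mapkapk3 (-9.92) set E5 libraries with 0 counts against detected ones, depend on the prior count and are no bound. E5 was higher than E3 at Ero1a (1.00), Mme (1.12), Ppp1r15a (1.14), Atf3 (1.75), Slit3 (1.98), Inpp5d (2.24), Crabp1 (2.47) and Galnt3 (3.17). The fitted values of Ndn (2.76), a growth suppressor gene expressed from the paternal copy, and Fbln2 (4.27) are no bound either, since their E3 libraries were at the detection floor, with 2, 0 and 1 counts of Ndn and 0 of Fbln2. At all 19 both clones lay on the same side of WT. The rule that named them required this, so it tests nothing.

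At 4 genes 1 library lay far from the other 5 of the KO group, by the gap to the nearest library as a share of the group's range. These were replicate 3 of clone E5 at Fbln2, which was highest (0.641), and replicate 3 of clone E3 at Cdh2 (lowest, 0.645), at Jam2, a junctional adhesion molecule (lowest, 0.702), and at Tspan17 (highest, 0.759). Chance gives such a gap in about 1 in 20 groups of this size, and 85 were looked at.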

How the results depend on the processing

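The number of DEGs, 219 lower and 192 higher, moved with the design. With DESeq2 it was 274 and 292, with a minimum of 10 counts in each library 130 and 155, at the FDR alone 546 and 467, and with glmTreat against a log2 fold change of 1 it was 64 and 10. It was 666 and 340 for the mean of both clones in the fit of 3 lines, where the clones' difference is not counted as spread, and 74 and 17 with voom and the line as a random block. With only clone E3 it was 600 and 760, and with only clone E5 863 and 446. Leaving out 1 library gave 101 to 267 lower and 45 to 249 higher. Other scalings left both counts within 1.5 times, and so did no filter (260 and 147). The replicate block gave 118 and 64. Replicate numbers did not pair the libraries (correlations of same-numbered deviations from -0.172 to 0.0472), so the numbers are shared by name only. Genes with every KO library below WT numbered 1697 and above WT 1394. Leaving out 1 library gave 1819 to 2181 and 1457 to 2077, and a gap above 1 gave 130 and 41. With upper-quartile scaling they were 1470 and 1571, so the higher side became the larger. The 72 DEGs that differed between clones were 75 with DESeq2. Of 74 named DEGs, 42 were called in every fit that left out 1 library. Cdh2 alone reversed, to -0.031 with only clone E3. The cause of these differences was not tested beyond what each alternative's construction states. Depth limits genes near the floor of 3 counts.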

Other observations

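Of 38 Hox and imprinted genes tested, 9 (23.7%) had every KO library above every WT library and 4 (10.5%) below, with 3 DEGs lower (Dcn, described above, Ndn and Hoxc4) and 0 higher. The genes above included Hoxa2, Hoxa5, Hoxa7, Hoxb2, Hoxb3, Hoxb4, Hoxb7 and Hoxb8, transcription factors of body-axis patterning. Their log2 fold changes ran from 0.32 at Hoxa7 to 1.29 at Hoxb8, with adjusted p from 0.0514 to 0.215 (edgeR). Below WT were Hoxc4 and Hoxc6 of another cluster, of which Hoxc4 was a DEG with 11 to 23 counts in WT libraries and 0 to 8 in KO libraries. That call was lost in 7 of the 9 fits that left out 1 library (adjusted p up to 0.186).

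Interferon-stimulated genes gave 3 of 35 tested genes (8.57%) below WT and 6 (17.1%) above, with 2 DEGs in each direction. Ifi204, a DNA sensor, stood at 3.08, 1.94 and 2.38 CPM in WT libraries and 6.68 to 13.6 in KO libraries (log2 fold change 1.90, adjusted p = 0.00414). Rtp4, a receptor transport protein, had 17, 17 and 12 counts in WT libraries and 33 to 49 in KO libraries, a call lost without any 1 WT library (adjusted p up to 0.096). Usp18, which removes ISG15, and Irf5 were lower at log2 fold changes of -1.29 and -1.21 (adjusted p = 0.04 and 0.0459), calls lost in 6 and 8 of the 9 fits that left out 1 library.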
